A study of Homo sapiens with 12 samples.

Results

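Transcripts of the EGFR family, of their ligands, and of the receptor tyrosine kinases MET and AXL were followed in HEYA8 ovarian cancer cells that carried different forms of the TGF-β co-receptor betaglycan (BG, gene TGFBR3). The 10 genes were EGFR, ERBB2, ERBB3, AREG, EREG, HBEGF, TGFA, NRG1, MET and AXL, taken by symbol from the 56269 genes of the deposited count table. HEYA8 is an established cell line, labelled as high grade serous ovarian cancer. Every library came from HEYA8 cells at steady state in regular growth medium (RPMI-1640 with 10% FBS), with 3 libraries in each of 4 genotype groups. The cells were lentivirally transduced lines, 1 line per construct, sorted as populations on the dTomato reporter of the vector, so a group stands for 1 transduced line. The control vector group carried the empty vector. The ∆GAG-BG group, whose genotype label reads deleted GAG, carried betaglycan without glycosaminoglycan (GAG) chains. The S534A group carried betaglycan with mainly chondroitin sulfate chains (CS-BG), and the S545A group carried betaglycan with mainly heparan sulfate chains (HS-BG). The third S545A library has a title that spells the mutation differently from its genotype label, and it was kept in the S545A group that the genotype label gives.

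EGFR, ERBB2 and ERBB3 are receptor tyrosine kinases that signal as pairs, and ERBB2 has no ligand of its own. TGF-α, HB-EGF, amphiregulin and epiregulin (TGFA, HBEGF, AREG and EREG) are membrane-anchored ligands of EGFR that are released by metalloproteases such as ADAM17, HB-EGF binds heparan sulfate, and neuregulin 1 (NRG1) is a ligand of ERBB3 and ERBB4. MET is the receptor for hepatocyte growth factor (HGF) and AXL the receptor for GAS6, and both are known for driving motility of carcinoma cells.

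Some libraries stood apart before any of these genes was examined. Total counts were 16410001 to 29504297 per library (median 24166676.5). TGFBR3, the gene of the constructs, was at 413 to 476 CPM (counts scaled to library size, per 1000000 reads) in the S534A libraries and 520 to 574 CPM in the S545A libraries. It was at 259, 20.3 and 21.4 CPM in libraries 1, 2 and 3 labelled ∆GAG-BG, but at 15.9, 259 and 259 CPM in those labelled control vector. Libraries 2 and 3 of these 2 groups therefore went against their labels in TGFBR3, and every direction given here against either group rests on the labels as deposited. Libraries 2 and 3 of the ∆GAG-BG, control vector and S545A groups were also closer to each other (chi-square per degree of freedom 1.40 to 1.99) than the other pairs within a group (17.4 to 78.6). Nothing in the labels shows that libraries of a group came from separate cultures, so p-values measure the spread between libraries, which may be technical. S534A library 2 and ∆GAG-BG library 1 stood furthest out, and their level of HSPA5, a chaperone of the endoplasmic reticulum, was 287 and 11852 CPM against 1226 to 3902 CPM in the other 10. The labelled cell type was checked against markers. PAX8 (193 to 295 CPM), KRT7 (745 to 1139 CPM) and VIM (2341 to 3129 CPM) were present, WT1 was low (3.41 to 8.37 CPM), EPCAM had 11 to 43 counts, and CDH1 and MUC16, defining markers of epithelium and of serous carcinoma, had 0 counts in all 12 libraries. Of the leukocyte markers, CD3E had 0 counts throughout and PTPRC at most 2. Among the endothelial markers, CDH5 was at 168 to 431 CPM, but VWF at 2.63 to 14.9 CPM and PECAM1 at 0.205 to 0.767 CPM. In bulk RNA, fewer cells with a transcript and less of it per cell cannot be told apart.

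RefSeq promoter windows (GRCh38.p14) were matched for 8 of the 10 genes, and the 250 bases before the start site are shown for the 3 receptors with the highest levels, for HBEGF, which varied most among libraries, and for the 2 EGFR ligands with the lowest levels. Capitals mark GC boxes (GGGCGG on either strand, so CCGCCC on the printed strand) and TATAAA elements.
AXL (chr19:41218973-41219222, plus strand): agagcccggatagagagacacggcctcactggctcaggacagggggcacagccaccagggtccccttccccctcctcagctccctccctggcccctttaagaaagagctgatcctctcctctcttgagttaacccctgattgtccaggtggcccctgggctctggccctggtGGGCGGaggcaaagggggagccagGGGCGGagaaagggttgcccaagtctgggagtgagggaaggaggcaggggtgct
EGFR (chr7:55018767-55019016, plus strand): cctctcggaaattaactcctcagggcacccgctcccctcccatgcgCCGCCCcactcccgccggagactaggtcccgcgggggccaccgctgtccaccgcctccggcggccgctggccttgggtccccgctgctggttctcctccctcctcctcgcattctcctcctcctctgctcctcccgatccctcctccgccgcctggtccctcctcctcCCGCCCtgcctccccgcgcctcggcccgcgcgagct
MET (chr7:116671946-116672195, plus strand): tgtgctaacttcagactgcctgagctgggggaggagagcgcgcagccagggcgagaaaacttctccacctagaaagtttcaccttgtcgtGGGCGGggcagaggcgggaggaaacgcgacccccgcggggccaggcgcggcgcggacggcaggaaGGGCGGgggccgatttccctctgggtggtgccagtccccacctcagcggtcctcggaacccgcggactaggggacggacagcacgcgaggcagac
HBEGF (chr5:140346604-140346853, minus strand): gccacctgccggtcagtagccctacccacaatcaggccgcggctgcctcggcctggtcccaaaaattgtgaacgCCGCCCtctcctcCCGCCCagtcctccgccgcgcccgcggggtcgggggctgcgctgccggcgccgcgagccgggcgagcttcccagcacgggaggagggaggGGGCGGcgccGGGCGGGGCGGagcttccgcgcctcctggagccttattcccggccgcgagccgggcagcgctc
AREG (chr4:74444886-74445135, plus strand): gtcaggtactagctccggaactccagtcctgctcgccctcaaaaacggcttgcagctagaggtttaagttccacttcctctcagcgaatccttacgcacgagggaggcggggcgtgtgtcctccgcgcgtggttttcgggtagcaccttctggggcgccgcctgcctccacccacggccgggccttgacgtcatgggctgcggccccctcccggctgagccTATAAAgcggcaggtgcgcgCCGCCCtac
EREG (chr4:74364895-74365144, plus strand): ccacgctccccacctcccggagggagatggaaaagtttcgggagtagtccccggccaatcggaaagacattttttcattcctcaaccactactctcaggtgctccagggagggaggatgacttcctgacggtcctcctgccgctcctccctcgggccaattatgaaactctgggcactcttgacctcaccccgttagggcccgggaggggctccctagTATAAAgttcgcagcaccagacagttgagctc

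The windows of AXL, EGFR and MET held 2 GC boxes each and that of HBEGF held 5, in part overlapping, and none of these 4 held TATAAA. The windows of AREG and EREG each held 1 TATAAA, with 1 GC box in AREG and 0 in EREG. Of the windows that are not printed, TGFA held 3 GC boxes and ERBB2 held 0. GC boxes were in 6 of the 8 windows against 42.6% of all 35116 RefSeq windows of that length, and TATAAA was in 2 of 8 against 10.7%. The AP-1 motif (TGACTCA or its reverse complement TGAGTCA) was in 0 of 8 against 4.20%, and the E-box CACGTG in 0 of 8 against 6.34%. These matches describe letters in a window and not bound sites.

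The 10 genes spanned more than 4 orders of magnitude in level per length, with AXL, EGFR and MET among the most abundant transcripts of the cells and ERBB3, AREG and EREG close to the counting limit. Per length, in reads per kilobase scaled to library size (RPKM), the mean level over the 12 libraries was 226 ± 15.7 for AXL, 76.6 ± 7.52 for EGFR, 42.7 ± 4.96 for MET, 19.6 ± 3.30 for TGFA, 8.10 ± 2.87 for HBEGF, 6.33 ± 0.495 for ERBB2 and 0.788 ± 0.169 for NRG1 (SD, n = 12). AXL lay above 99.3% of the 16069 genes that passed the filter on low counts, EGFR above 97.1%, MET above 94.3% and NRG1 above 23%. Among the 7 genes tested, the ranges over libraries overlapped between the neighbours TGFA (14.2 to 24.2 RPKM) and HBEGF (6.48 to 15.5 RPKM), and between HBEGF and ERBB2 (5.28 to 6.93 RPKM). AREG followed at 0.224 ± 0.0692 RPKM, then ERBB3 at 0.0189 ± 0.0160 and EREG at 0.0129 ± 0.0127, and the ranges of the latter pair overlapped.

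**Figure D1:**
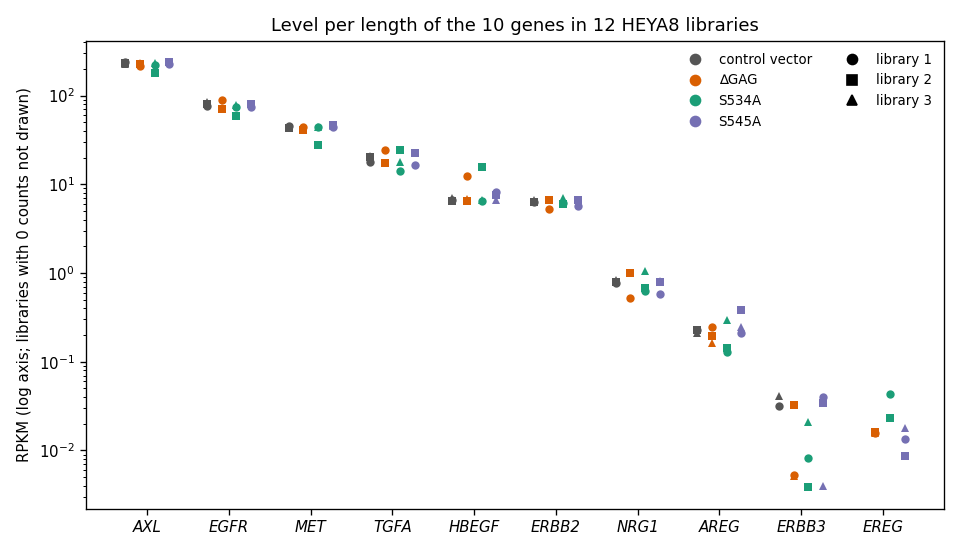
Level per length (RPKM, log axis) of each of the 10 genes, 1 point per library, coloured by genotype group and shaped by library number; libraries with 0 counts are not drawn. AXL sits at 180 to 240 RPKM in all 12 libraries, and ERBB3 and EREG stay below 0.0435 RPKM.

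In the reported fit, none of the 7 genes of the set that could be tested was called different between genotypes. The 7 genes that passed the filter were tested with edgeR in a fit of all 16069 genes, and a call was taken as an unadjusted p under 0.05. For ∆GAG-BG against control vector, 0 of 7 were called, where 0.871% of all genes tested were. For S534A against ∆GAG-BG, 0 of 7 were called against 2.99% of all genes. For S545A against ∆GAG-BG, 0 of 7 were called against 1.10%. For S534A against control vector, 0 of 7 were called against 3.45%, and for S545A against control vector, 0 of 7 against 1.05%. The S545A and S534A groups differ in the main kind of GAG chain and also in the transduced line, and these cannot be told apart. For S545A against S534A, 0 of 7 were called against 4.78%. Likewise the 3 libraries of a group never lay entirely above or below those of another for any of the 7 genes, while such separation was seen for 4.87%, 5.65%, 5.04%, 7.65%, 8.82% and 10.1% of all genes in these comparisons, in the same order. With 7 genes, a count of 0 lies close to these background shares. No gene of the whole table had an adjusted p (edgeR, Benjamini-Hochberg) under 0.05 in any of the 6 comparisons, where 140 to 768 genes had an unadjusted p under 0.05, and DESeq2 called 0 to 5 genes and limma-voom 0 or 1. DESeq2 and limma-voom also called 0 of the 7 genes at an unadjusted p under 0.05. A fit with libraries 2 and 3 labelled ∆GAG-BG and control vector left out keeps 1 library in each of these groups. A count of calls from it cannot decide whether genes differ there, and its log2 fold changes are given below. The comparisons share groups, so their values for a gene are not independent.

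**Figure D2:**
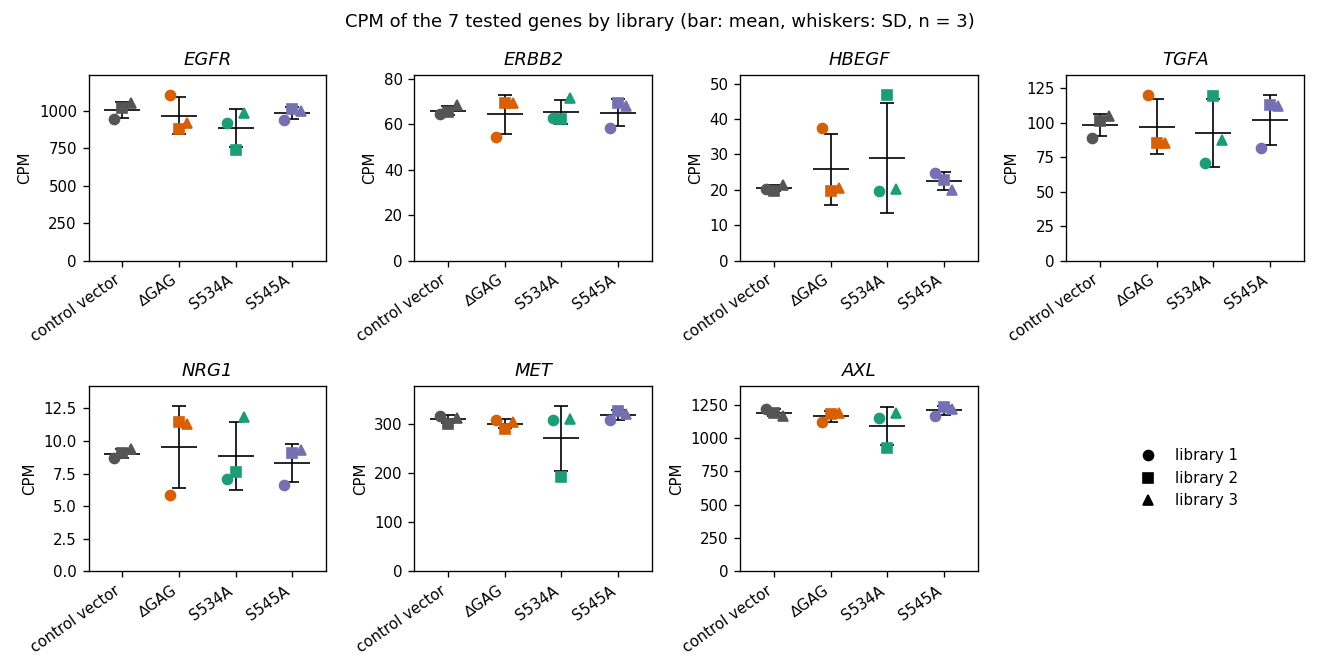
CPM of each of the 7 tested genes (vertical axes from 0) by genotype group, 1 point per library, with the mean as a bar and the SD as whiskers (n = 3). The groups overlap for every gene, and S534A library 2 (square) is lowest for EGFR, MET and AXL and highest for HBEGF.

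EGFR, the receptor shared by most of the ligands examined, had overlapping levels in all 4 groups. Its level was 947, 1019 and 1049.5 CPM in libraries 1, 2 and 3 labelled control vector, 1106, 877 and 917 CPM in those labelled ∆GAG-BG, 921, 739 and 984 CPM in S534A, and 936, 1012 and 998 CPM in S545A. S534A library 2 was the lowest of the 12 and ∆GAG-BG library 1 the highest, and these libraries set most of the spread. The group means ordered as control vector (1005 ± 52.7 CPM), S545A (982 ± 40.5), ∆GAG-BG (967 ± 122) and S534A (881 ± 127; SD, n = 3), with all neighbours overlapping. The log2 fold change of S534A against control vector was -0.19 ± 0.118 (SE) with an adjusted p of 0.871 by edgeR, and that of S545A against S534A was 0.16 ± 0.118 with an adjusted p of 0.708. With S534A library 2 and ∆GAG-BG library 1 left out together, EGFR was lower in the remaining libraries labelled ∆GAG-BG (877 and 917 CPM) than in those labelled control vector, with a log2 fold change of -0.16 and an unadjusted p of 0.0284 in edgeR (adjusted p = 0.890, where 5.55% of all genes were called). Both of these ∆GAG-BG libraries, and the upper 2 of the 3 control libraries, are those whose TGFBR3 level went against the labels.

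ERBB2, the partner receptor without a ligand, had one of the narrower spans over the 12 libraries. It was at 64.5, 65.4 and 68.6 CPM in the libraries labelled control vector, 54.5, 69.5 and 69.5 CPM in those labelled ∆GAG-BG, 62.7, 62.3 and 71.5 CPM in S534A, and 58.5, 69.3 and 68.1 CPM in S545A. The highest library was 1.31 times the lowest, next to 1.33 times for AXL, a span larger than that of only 28.7% of the 10621 genes with a mean of at least 5 CPM. Its 4 group means lay between 64.5 ± 8.65 CPM (∆GAG-BG) and 66.2 ± 2.17 CPM (control vector; SD, n = 3), and the 95% intervals of its 6 log2 fold changes ran from -0.27 to 0.26, or factors of 0.827 to 1.2. Leaving out libraries 2 and 3 labelled ∆GAG-BG and control vector keeps 1 library in each. The log2 fold change of ERBB2 was then 0.264 for S534A against ∆GAG-BG and -0.26 for ∆GAG-BG against control vector. Exons of ERBB2 overlap exons of MIEN1 and PGAP3 on the opposite strand, over 5.53% and 1.88% of its length. Whether counting used strand is not stated.

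ERBB3, the receptor for neuregulin 1, was near the counting limit in every group, with 0 to 9 counts per library. Summed over each group it had 17 counts in control vector, 8 in ∆GAG-BG, 6 in S534A and 16 in S545A, or 0.224, 0.122, 0.0804 and 0.212 CPM, with exact Poisson intervals that overlapped (lowest bound 0.0295 and highest bound 0.359 CPM). Such intervals cover counting error only. ERBB4, the other neuregulin receptor, had 0 to 10 counts per library, so neither was measured well enough to compare at this depth.

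Among the EGFR ligands, TGFA was the main transcript and HBEGF the more variable. TGFA was at 88.9, 101.1 and 105 CPM in the libraries labelled control vector, 120.2, 85.2 and 85.5 CPM in those labelled ∆GAG-BG, 70.6, 119 and 87.5 CPM in S534A, and 81.3, 113 and 112 CPM in S545A. Its means were 102 ± 17.9 CPM in S545A, 98.2 ± 8.26 in control vector, 97.0 ± 20.1 in ∆GAG-BG and 92.5 ± 24.8 in S534A (SD, n = 3), with overlap between all neighbours. TGFA made up 71.6% to 84.5% of the summed CPM of TGFA, HBEGF, AREG and EREG in each library, and HBEGF 15.1% to 28.1%. These shares are not corrected for length. Per length, TGFA and HBEGF had means of 19.6 and 8.10 RPKM, and were at 24.1 and 15.5 RPKM in S534A library 2. With S534A library 2 and ∆GAG-BG library 1 left out, TGFA was at 70.6 and 87.5 CPM in S534A against 81.3 to 113 CPM in S545A, a log2 fold change of S545A against S534A of 0.37 with an unadjusted p of 0.0333 in edgeR (adjusted p = 0.908, where 5.06% of all genes were called).

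HBEGF, a heparan sulfate-binding ligand, lay in a narrow band in 10 libraries and well above it in 2. It was at 20.2, 19.7 and 21.4 CPM in the libraries labelled control vector, 37.4, 19.6 and 20.5 CPM in those labelled ∆GAG-BG, 19.6, 46.9 and 20.3 CPM in S534A, and 24.9, 22.8 and 19.97 CPM in S545A. S534A library 2 was 2.32 times and ∆GAG-BG library 1 was 1.85 times the median of the other 10, which spanned 19.6 to 24.9 CPM. The span over all 12 libraries, 2.4-fold, was larger than that of 92.8% of the 10621 genes. Group means were 28.9 ± 15.6 CPM in S534A, 25.8 ± 10.0 in ∆GAG-BG, 22.5 ± 2.46 in S545A and 20.4 ± 0.862 in control vector (SD, n = 3). The log2 fold change was 0.51 ± 0.326 (SE; 95% interval -0.21 to 1.22) for S534A against control vector, with an adjusted p of 0.871 by edgeR, and it was -0.04 without S534A library 2. For ∆GAG-BG against control vector it was 0.34 ± 0.326 (adjusted p = 1 by edgeR) and -0.04 without ∆GAG-BG library 1. For S545A against S534A it was -0.37 ± 0.325 (adjusted p = 0.736 by edgeR) and 0.18 without S534A library 2. These differences between groups thus moved with single libraries.

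AREG and EREG, the remaining EGFR ligands, were too low for the filter. AREG had 6 to 13 counts in each of the 12 libraries, and its summed level was 0.370 CPM in control vector, 0.334 in ∆GAG-BG, 0.281 in S534A and 0.450 in S545A, with overlapping exact Poisson intervals (lowest bound 0.174 and highest bound 0.629 CPM). Without S534A library 3, AREG passed the filter and had a log2 fold change of 1.01 for S545A against S534A, with an unadjusted p of 0.0248 (adjusted p = 0.305 by edgeR, where 15.8% of all genes were called). EREG had 0 counts in all 3 libraries labelled control vector, 2, 2 and 2 counts in those labelled ∆GAG-BG, 7, 4 and 0 counts in S534A, and 2, 1 and 3 counts in S545A. Its summed level was 0.147 CPM in S534A (11 counts, exact Poisson interval 0.0736 to 0.264), while 0 counts in control vector allow up to 0.0396 CPM (3 counts over the group). The intervals of ∆GAG-BG (0.0335 to 0.199 CPM) and S545A (0.0291 to 0.173 CPM), with 6 counts each, reached below that limit. When edgeR was run with no filter on low counts, over 33903 genes, EREG had an unadjusted p of 0.0110 for ∆GAG-BG, 0.00203 for S534A and 0.0151 for S545A, each against control vector (adjusted p = 1, 0.863 and 1), where 1.26%, 2.98% and 1.44% of all genes were called. No fold change is given, since the counts of both sides were at or under the limit of 3 counts per library in 10 of the 12 libraries. Of the ligands outside the set, BTC had 1 to 10 counts, EPGN 0 to 4 and EGF 2 to 25 counts per library.

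NRG1, the neuregulin, was low but measurable, with 130 to 272 counts per library. It was at 8.68, 9.04 and 9.35 CPM in the libraries labelled control vector, 5.89, 11.5 and 11.3 CPM in those labelled ∆GAG-BG, 7.10, 7.60 and 11.8 CPM in S534A, and 6.62, 9.06 and 9.28 CPM in S545A. Library 1 was the lowest of its group in all 4 groups. The means were 9.54 ± 3.17 CPM in ∆GAG-BG, 9.02 ± 0.337 in control vector, 8.84 ± 2.59 in S534A and 8.32 ± 1.48 in S545A (SD, n = 3), again with overlap between neighbours. Of the other neuregulins, NRG2 was at 2.83 to 6.17 CPM, with a mean per length of 1.07 RPKM beside 0.788 RPKM for NRG1. NRG4 was at 5 to 15 counts and NRG3 at 0 or 1 count per library.

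MET, the HGF receptor, was held within narrow limits in all libraries but S534A library 2. It was at 317, 302 and 313 CPM in the libraries labelled control vector, 309, 291 and 304 CPM in those labelled ∆GAG-BG, 308, 194 and 312 CPM in S534A, and 308, 327 and 322 CPM in S545A. S534A library 2 was 0.624 times the median of the 10 libraries that exclude it and ∆GAG-BG library 1, and those 10 differed by at most 1.13-fold. Group means were 319 ± 9.84 CPM in S545A, 310.4 ± 7.93 in control vector, 301 ± 9.27 in ∆GAG-BG and 271 ± 67.2 in S534A (SD, n = 3). The log2 fold change of S545A against S534A was 0.23 ± 0.144 (SE) with an adjusted p of 0.702 by edgeR. It was 0.04 without S534A library 2 and 0.35 without S534A library 3, where the unadjusted p was 0.0451 and the adjusted p 0.313 (15.8% of all genes called). The ligand HGF and its activator HGFAC had 0 counts in all 12 libraries, which allows up to 0.1 to 0.182 CPM per library.

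AXL, the most abundant of the 10 transcripts, behaved in the same way. It was at 1221, 1189.9 and 1164 CPM in the libraries labelled control vector, 1118, 1183 and 1191 CPM in those labelled ∆GAG-BG, 1151.5, 928 and 1191 CPM in S534A, and 1169, 1236 and 1221 CPM in S545A. S534A library 2 was 0.780 times the median of the other 10, which spanned 1.07-fold. Group means were 1209 ± 35.5 CPM in S545A, 1191.5 ± 28.5 in control vector, 1164 ± 39.9 in ∆GAG-BG and 1090.3 ± 142 in S534A (SD, n = 3). The 95% intervals of its 6 log2 fold changes ran from -0.33 to 0.35. Its ligand GAS6 was at 167 to 231 CPM, and the related receptors TYRO3 and MERTK at 17.2 to 29.1 and 2.07 to 6.55 CPM.

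**Figure D3:**
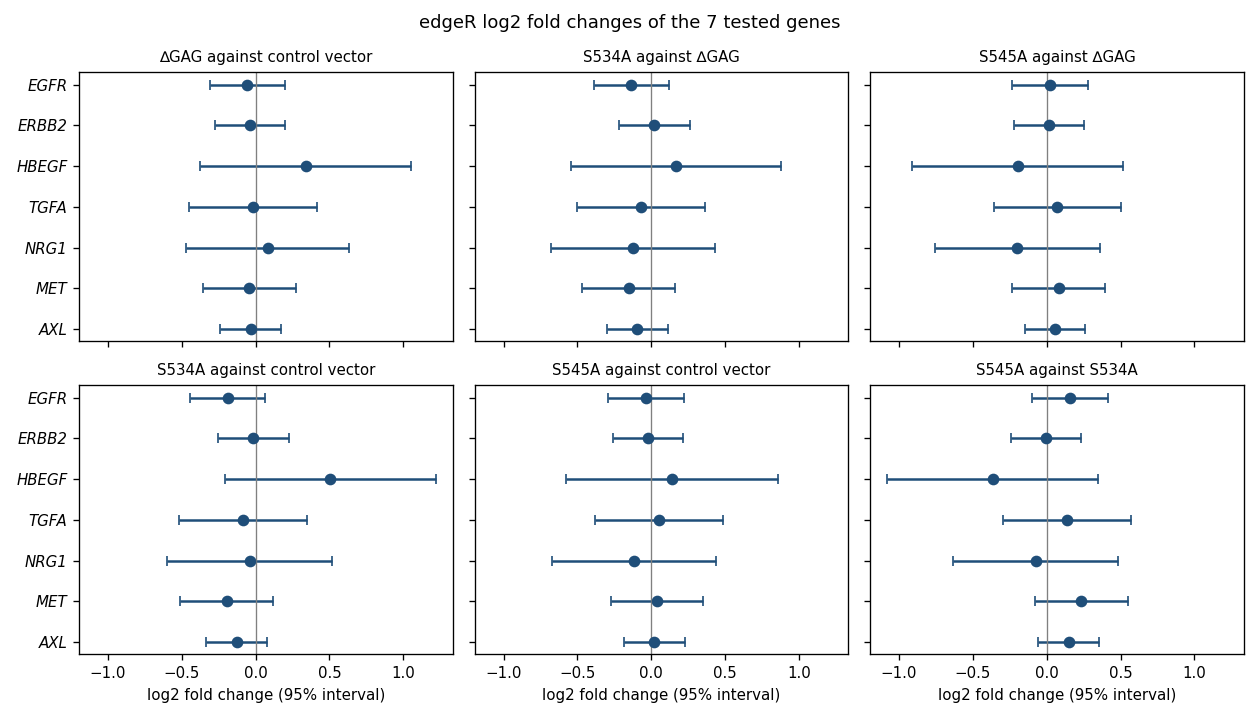
Log2 fold changes of the 7 tested genes with their 95% intervals (edgeR, all 12 libraries in the fit), 1 panel per comparison, the first-named group against the second. All 42 intervals include 0, and HBEGF has the widest.

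The intervals give the size of difference that these libraries, as labelled, still allow. Across the 6 comparisons they ran from -0.33 to 0.35 for AXL, -0.27 to 0.26 for ERBB2, -0.445 to 0.41 for EGFR, -0.51 to 0.55 for MET, -0.52 to 0.57 for TGFA, -0.75 to 0.64 for NRG1 and -1.08 to 1.22 for HBEGF, on the log2 scale. A factor of 1.28 for AXL and 2.33 for HBEGF thus remained within the upper bounds. These bounds rest on all libraries. With libraries 2 and 3 labelled ∆GAG-BG and control vector left out, which leaves 1 library in each, 7 values lay outside the interval of the same comparison. For ∆GAG-BG against control vector these were EGFR (0.208), TGFA (0.418) and NRG1 (-0.575), and ERBB2 was at -0.26. For S534A against ∆GAG-BG they were ERBB2 (0.264) and NRG1 (0.573), and for S545A against ∆GAG-BG they were ERBB2 (0.257) and NRG1 (0.495). The median size of the log2 fold change over the 7 genes was 0.0432, 0.122, 0.0720, 0.128, 0.0391 and 0.149 in the comparisons as ordered above, beside 0.0713, 0.132, 0.0778, 0.135, 0.0857 and 0.152 over all genes tested. By the exact permutation test (two-sided, 3 libraries against 3, smallest possible p 0.1), the smallest p of a tested gene was 0.2.

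Within groups, the genes differed by library. S534A library 2 and ∆GAG-BG library 1 held 8 of the 14 highest and lowest places of the 7 genes, and S534A libraries 1 and 3 and S545A library 2 held the other 6. Over the 10621 genes with a mean of at least 5 CPM, S534A library 2 held 29.7% of the highest and 28.1% of the lowest places. ∆GAG-BG library 1 held 18.1% and 18.8% of them, so both libraries were often extreme over all genes as well. S534A library 2 lay outside the range of the other 10 libraries for EGFR, MET and AXL (below) and for HBEGF and TGFA (above), with ERBB2 and NRG1 inside. In the ∆GAG-BG library 1, EGFR, TGFA and HBEGF were above that range (1.15, 1.36 and 1.85 times its median), ERBB2, NRG1 and AXL below it (0.797, 0.642 and 0.939 times), and MET inside. Hence TGFA and HBEGF were high in both libraries, while EGFR was low in the first and high in the second. These libraries also lay outside that range for 63.8% and 48.8% of the 10621 genes with a mean of at least 5 CPM, so the genes of the set were not alone in it. Of the 3 endothelial markers, CDH5 was at 168 CPM in S534A library 2 against 291 to 431 CPM elsewhere. VWF was also lowest in that library, at 2.63 CPM, and PECAM1 had only 4 to 17 counts per library. Nearly all CPM of this list came from CDH5. The list summed to 171 to 418 CPM in S534A, 327 to 407 in control vector, 331 to 383 in ∆GAG-BG and 296 to 445 in S545A. FN1, a mesenchymal marker, was at 1411 CPM in ∆GAG-BG library 1 against 321 to 1034 CPM elsewhere. CDH2 was at 122 CPM in that library, and at 115, 118 and 130 CPM in library 1 of control vector, S545A and S534A. In libraries 2 and 3 of all groups CDH2 was at 144 to 150 CPM. VIM was the largest of the list, and the 3 mesenchymal markers summed to 2963 to 3101 CPM in S534A, 3223 to 4051 in control vector, 3634 to 4662 in ∆GAG-BG and 3389 to 3461 in S545A. The part of HSPA5 level and of these markers in the values of the 7 genes was not tested. Without both libraries, the remaining 10 spanned 1.2-fold for EGFR, 1.22-fold for ERBB2, 1.27-fold for HBEGF, 1.60-fold for TGFA and 1.78-fold for NRG1, against 1.70-fold and 2.01-fold for the latter pair over all 12.

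**Figure D4:**
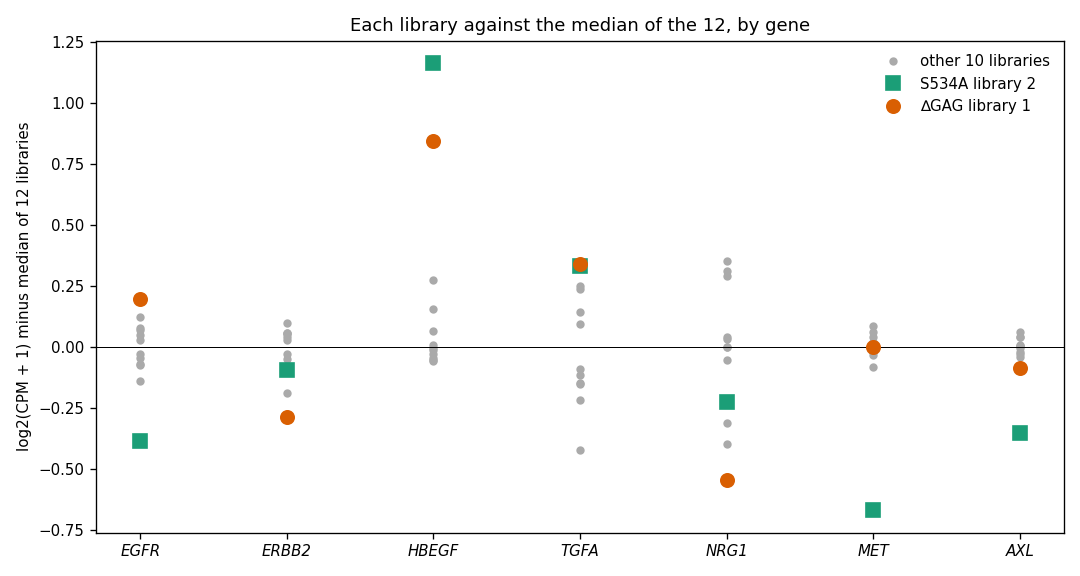
Difference of log2(CPM + 1) from the median of the 12 libraries for each tested gene, with S534A library 2 as squares, ∆GAG-BG library 1 as large circles and the other 10 libraries as small points. Both marked libraries lie above the rest for HBEGF and TGFA, and S534A library 2 lies below the rest for EGFR, MET and AXL.

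ERBB2 and NRG1 rose and fell together over libraries, while the correlation of MET and AXL rested largely on S534A library 2. For ERBB2 and NRG1, Pearson's r of log2(CPM + 1) over the 12 libraries was 0.937 and Spearman's rho 0.965. It remained 0.912 without S534A library 2 and ∆GAG-BG library 1 (n = 10) and was 0.953 with the near-identical libraries 2 and 3 averaged (n = 9). For MET and AXL, r was 0.946 over 12 libraries with a rho of 0.622, but 0.475 without S534A library 2 (n = 11) and 0.591 without both libraries (n = 10). HBEGF and AXL had r = -0.858, and 0.00948 without both libraries (n = 10). HBEGF and TGFA had r = 0.594, and 0.107 without both. The points of each correlation share library preparation, depth and genotype group, and 21 pairs of genes were computed, so these values are descriptions.

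**Figure D5:**
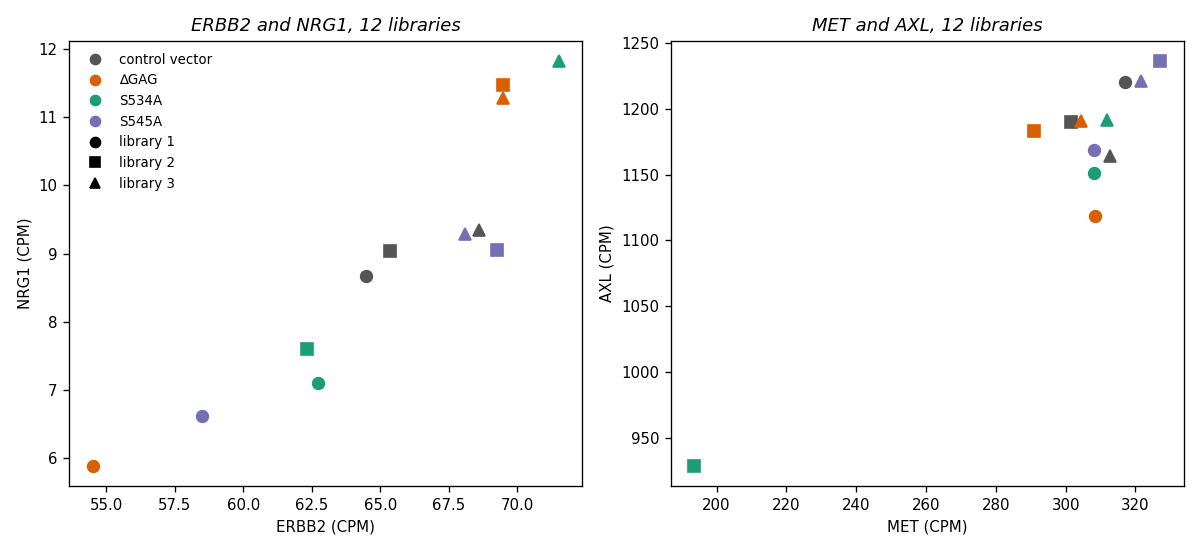
CPM of NRG1 against ERBB2 and of AXL against MET in the 12 libraries, coloured by group and shaped by library number; the axes do not start at 0. The ERBB2 and NRG1 points follow a line from ∆GAG-BG library 1 to S534A library 3, while the MET and AXL points form a cluster with S534A library 2 far below it.

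Outside the set, the gene whose profile over the 12 libraries was most like that of each member was found among 10614 genes with a mean of at least 5 CPM. It was UBN2 for EGFR (r = 0.976), CRIM1 for ERBB2 (0.981), IL1B for HBEGF (0.987), TMEM256-PLSCR3 for TGFA (0.952), SNX7 for NRG1 (0.973), WNK1 for MET (0.987) and TNFAIP8L1 for AXL (0.975). For EGFR, MET and AXL, 7.90%, 8.21% and 7.69% of these genes had an r above 0.8, against 2.92% for ERBB2, 4.86% for HBEGF, 2.17% for TGFA and 2.47% for NRG1.

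Genes that act with these receptors showed few differences between genotypes. Of 55 further receptors, ligands, adaptors, inhibitors, sheddases, HGF activators and ERK-responsive transcripts, 46 were tested, and 9 were too low. The calls (unadjusted p under 0.05) were 1 higher and 0 lower for ∆GAG-BG against control vector (2.17%), 1 higher and 3 lower for S534A against ∆GAG-BG (8.70%), 0 for S545A against ∆GAG-BG, 0 higher and 2 lower for S534A against control vector (4.35%), 0 for S545A against control vector, and 3 higher and 1 lower for S545A against S534A (8.70%). These shares stand beside the background of 0.871%, 2.99%, 1.10%, 3.45%, 1.05% and 4.78% given above, and no adjusted p passed 0.05 by edgeR. DESeq2 gave an adjusted p under 0.05 to TIMP3 alone of these genes, for S534A against ∆GAG-BG. None of the 14 adaptors and effectors, which include GRB2, SHC1 and SOS1, was called in any comparison.

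TIMP3, an inhibitor of the metalloproteases that release EGFR ligands, gave 4 of these calls. It was at 38.1, 30.1 and 27.1 CPM in the libraries labelled control vector, 35.5, 51.7 and 50.4 CPM in those labelled ∆GAG-BG, 25.3, 15.2 and 26.4 CPM in S534A, and 30.1, 35.7 and 39.9 CPM in S545A. The S534A libraries were below those of every other group. Its log2 fold change was -1.05 ± 0.219 (SE) for S534A against ∆GAG-BG, with an unadjusted p of 0.000461 (adjusted p = 0.890 by edgeR, while DESeq2 put it under 0.05 as 1 of 5 genes), 0.53 ± 0.216 for ∆GAG-BG against control vector, -0.52 ± 0.218 for S534A against control vector and 0.67 ± 0.218 for S545A against S534A. The higher TIMP3 values labelled ∆GAG-BG and the lower ones labelled control vector are those of libraries 2 and 3, whose TGFBR3 level went against the labels. In library 1, TIMP3 was at 35.5 CPM in ∆GAG-BG and 38.1 CPM in control vector. TIMP3 was singled out by the study from these same libraries, so it is not independent evidence. The releasing protease ADAM17 was at 59.9 to 93.5 CPM and ADAM10 at 165 to 202 CPM, and neither was called.

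Among the transcripts that respond to EGFR and ERK signaling, the feedback inhibitors SPRY2 and SPRY4 were lower in S534A than in ∆GAG-BG, by log2 fold changes of -0.31 ± 0.112 and -0.34 ± 0.132 (SE; unadjusted p 0.0163 and 0.0253, adjusted p = 0.890 for both by edgeR). SPRY2 was at 72.1, 70.8 and 89.0 CPM in S534A and at 92.9, 97.8 and 97.1 CPM in the libraries labelled ∆GAG-BG, without overlap. It was also called lower in S534A than in control vector (-0.25) and higher in S545A than in S534A (0.25). SPRY4 was at 102, 111 and 132 CPM in S534A and at 154, 143 and 139 CPM in the libraries labelled ∆GAG-BG. EGR1, an immediate early transcription factor, was called lower in S545A than in S534A (-2.99 ± 1.32), but S534A library 2 held 16.3 CPM while the other S534A libraries held 1.03 and 0.364 CPM. ∆GAG-BG library 1 was the next highest in EGR1, at 9.15 CPM, so the libraries that were high in HBEGF were high in EGR1 as well. The remaining 5 of the 8 transcripts (DUSP6, PHLDA1, FOSL1, ETV4 and ETV5) were not called in any comparison. PROS1, a ligand of TYRO3 and MERTK, was higher in S534A (21.4 to 22.9 CPM) than in ∆GAG-BG (17.4 to 20.5 CPM), with a log2 fold change of 0.25 ± 0.0968 (unadjusted p = 0.0226, adjusted p = 0.890 by edgeR). RNF41, a ubiquitin ligase that lowers ERBB3, was higher in S545A than in S534A (0.42 ± 0.169, unadjusted p = 0.0281, adjusted p = 0.702 by edgeR), and S534A library 2 was its lowest library at 23.9 CPM.

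The coordinates of the measured genes in the count table matched GENCODE release 29 (GRCh38) at both ends for 9 of the 10. EGFR lies on chromosome 7 at 55019021 to 55211628 (plus strand), ERBB2 on chromosome 17 at 39687914 to 39730426 (plus), HBEGF on chromosome 5 at 140332843 to 140346631 (minus), TGFA on chromosome 2 at 70447280 to 70554193 (minus), MET on chromosome 7 at 116672390 to 116798386 (plus) and AXL on chromosome 19 at 41219203 to 41261766 (plus). AREG (chromosome 4 at 74445134 to 74455009, plus) and EREG (74365143 to 74388751, plus) are neighbours on the same chromosome. For ERBB3, on chromosome 12, the table starts at 56079857 and the annotation at 56076799. Counts are sums over all exons of a gene, including untranslated regions, so isoforms were not separated. Antisense transcripts overlap exons of EGFR (EGFR-AS1, 1.49% of its length) and AXL (1.30%), with at most 43 and 36 counts of their own.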

How the data were processed

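RNA of 12 HEYA8 libraries (3 per genotype group, grouped by the genotype labels) was sequenced as paired reads of 2 x 150 bases. The authors deposited raw read counts per gene, without normalization. Per the labels, they used FastQC, Trim Galore 0.4.5, STAR 2.4, SAMtools 1.2 and featureCounts. Their processing notes name mm10 and GRCm38, but the deposited table has human symbols and coordinates, of which 33648 of 56269 genes have the same start and end in GENCODE release 29 (GRCh38). The labels name a directional kit, but the strand setting of the counting is not given in the sources used here.

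From the counts, low genes were removed (edgeR filterByExpr, minimum count 10), library sizes were TMM-adjusted and edgeR 4.0.16 (robust quasi-likelihood) was run in R 4.3.3, in 1 model of 4 groups with 8 residual degrees of freedom and Benjamini-Hochberg adjustment over 16069 genes. The biological coefficient of variation was 0.163. CPM and RPKM use TMM-scaled library sizes and the table's gene length, and log2(CPM + 1) was used for correlations and exact permutation tests. Depth was 16410001 to 29504297 counts, so 3 counts, the limit that a count of 0 allows, equal 0.1 to 0.182 CPM. Intervals are at 95%. On simulated counts for S534A against ∆GAG-BG over 16069 genes, 67.5% of 200 genes changed 2-fold were recovered, with 6 false calls. The simulated libraries were drawn independently, without the outlying or near-identical libraries of the data. That share is therefore a check of the code and not the power of the reported tests.

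The members and lists were chosen with earlier results of these data known. The genes named are the 10 members, TGFBR3 as the check of the labels, listed ligands and receptors, listed genes with an unadjusted p under 0.05 (at most 3 per list and comparison), and the gene most correlated with each member. HSPA5 and markers given for single libraries were chosen after their values were seen. Alternatives were DESeq2 1.42.0, limma-voom (limma 3.58.1), RLE factors, library size only, other filters, fits of the compared groups alone, a replicate block, libraries left out, and libraries 2 and 3 summed. The labels give replicate numbers no shared batch. For S545A and control vector, deviations from the group mean correlated at 0.82, 0.673 and 0.686 between libraries of equal number. The reported tests did not pair libraries, and the replicate number entered only as the block of an alternative fit. Libraries 2 and 3 of both groups were near-identical, so these correlations cannot tell which libraries would form pairs.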

Additional observations from a re-analysis of the deposited data

How the results depend on the processing

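Over 24 alternative settings, 756 values of the 42 log2 fold changes were computed, and 742 kept their side of the threshold and, where the reported value exceeded its standard error (12 of 42), its direction. No adjusted p of the 7 tested genes fell below 0.313. Where the reported value was within its standard error, 79 alternative values had the other sign. With the replicate number as a block, 0 of 7 genes were called in every comparison, and no adjusted p of the table passed 0.05 (0 genes), so the block changed no call. The settings that changed a call or a direction follow, and the cause was not tested unless fewer libraries or another filter set it.

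Without S534A library 2 and ∆GAG-BG library 1 together, a setting chosen after seeing the data, S534A against ∆GAG-BG became 0.0865 for EGFR and 0.0591 for MET, and HBEGF became -0.0272 for ∆GAG-BG against control vector, -0.037 for S534A against control vector and 0.177 for S545A against S534A. That setting called 1 member (EGFR) for ∆GAG-BG against control vector and 1 (TGFA) for S545A against S534A. Without library 1 of ∆GAG-BG and control vector, HBEGF was -0.0411 for ∆GAG-BG against control vector. Leaving out each library in turn, HBEGF ranged from -0.0357 to 0.499 for ∆GAG-BG against control vector, -0.0382 to 0.72 for S534A against control vector and -0.579 to 0.18 for S545A against S534A, and for S534A against ∆GAG-BG, MET ranged from -0.259 to 0.044 and AXL from -0.158 to 0.0118. Members called for S545A against S534A ranged from 0 to 2, with 2 (AREG and MET) without S534A library 3. With no filter on low counts, 1 member (EREG) was called for each group against control vector.

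Over all genes, adjusted p-values under 0.05 numbered 5, 2 and 1 with DESeq2 for S534A against ∆GAG-BG, S534A against control vector and S545A against S534A, and 1 in each of these with limma-voom and with no filter. Without libraries 2 and 3 labelled ∆GAG-BG and control vector they numbered 9 for S534A against ∆GAG-BG and 1 for each group against control vector. Without library 1 of both groups they numbered 1 for ∆GAG-BG against control vector and 1 for S534A against ∆GAG-BG, S545A against ∆GAG-BG and S545A against control vector. None of these genes was a tested member. Depth limits ERBB3, AREG and EREG, where group levels rest on at most 34 counts.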
